A study of Mus musculus with 2 samples.

Results

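The cells described here are natural killer (NK) cells of MC38 tumours that held at most 1 UMI (unique molecular identifier, 1 per captured transcript) of the granzyme genes Gzmc, Gzmd, Gzme, Gzmf and Gzmg together. They were chosen from barcodes with at least 1000 UMIs and at most 10% mitochondrial UMIs. A cell had to hold at least 1 UMI of Ncr1 or Klrb1c, which encode the NK receptors NKp46 and NK1.1. It could hold no UMI of Cd3d or Cd3e, subunits of the T-cell receptor complex, and fewer than 3 of Lyz2 and Csf1r, genes of myeloid cells. The rule found 585 cells among 4495. Levels are given as CPM, the UMIs of a gene per 1000000 UMIs summed over the cells of a class in 1 library. The rule itself reads Ncr1, Klrb1c, Cd3d, Cd3e, Gzmc to Gzmg, Lyz2 and Csf1r, so levels of those genes are given as a description only.

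Viable CD45+ cells, that is leukocytes, were sorted from tumours of the mouse colon carcinoma line MC38 in C57BL/6J mice, and 10x Genomics 3' libraries were made. Tumours were placed in the skin at 4 sites per mouse, and grew for 7 days. Each tumour then received either a control injection or anti-PD-1 antibody, dosed daily at 200 μg for each mouse, and was taken on day 10, 3 days later. There was 1 library per group, Control and aPD1, and no source used here says how many mice each came from or what the control injection held. Both groups carried the same tumour and strain. With 1 library per group there is no replicate check and no test between groups. Every interval below is a 95% interval for counting error only, and every difference is one between these libraries.

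NK cells are innate lymphocytes that kill stressed, infected or transformed cells without an antigen receptor that is rearranged. They read a balance of signals from receptors encoded by germline genes. In mice these are the Ly49 family (Klra genes), the CD94/NKG2 receptors (Klrd1, Klrc and Klrk1 genes) and the NKR-P1 family (Klrb1 genes), many of which bind MHC class I or related molecules. They kill with perforin and granzymes and secrete interferon gamma and chemokines that draw other leukocytes.

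The matrices held 5203415 UMIs in Control and 13717817 in aPD1, and 1174 and 3321 barcodes passed the limits on UMIs and mitochondrial share. The NK cells described here had a median depth of 2387.5 and 2038 UMIs, a median of 973.5 and 880 detected genes, and UMIs that summed to 676644 and 824481. No gated barcode occurred in both libraries, and 4 did among all cells. The share of free RNA in the gated cells, read from macrophage genes, was 1.70% in Control and 2.68% in aPD1. Mixed transcriptomes were present. In Control 2 gated cells, and in aPD1 12, held at least 5 UMIs of MHC class II genes, at least 3 of S100a8 and S100a9, or at least 3 of Fscn1, a gene of mature dendritic cells. Neutrophil markers summed to 4.43 CPM in Control (5 of 7 at 0) and 352 in aPD1 (0 of 7 at 0), dendritic-cell markers to 1210 and 302 (2 of 10 at 0 in each) and macrophage markers to 474 and 505. Values without the mixed cells are given beside the results they hold, and the part of these markers in other results was not tested.

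Gated NK cells made up 238 of 1174 Control cells, or 20.3% (18.0 to 22.7, exact Clopper-Pearson), and 347 of 3321 aPD1 cells, or 10.4% (9.43 to 11.5). The aPD1 share was 0.515 times the Control share. T cells (at least 1 UMI of Cd3d or Cd3e, none of Ncr1 or Klrb1c) went the other way, from 26.0% to 48.8% of cells, and gated NK cells per T cell stood at 0.780 and 0.214. Shares of a library sum to 1, and fewer NK cells cannot be told apart here from more of the other cells. Among NK cells of both kinds, those without the 5 granzymes were 78.8% (73.8 to 83.3) in Control and 72.6% (68.4 to 76.5) in aPD1, and these intervals overlap.

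The label was checked against marker genes. The NK lineage list includes genes of the rule and genes used to name the cells, so its count is a description. Of its 16 markers 14 had enough UMIs to compare with T cells, and 13 were at least 2-fold higher than in T cells in both libraries. Eomes, the T-box factor of conventional NK cells, stood at 137 CPM in Control and 166 in aPD1, against 8.28 and 25.4 in T cells. Tbx21, its relative T-bet, stood at 91.6 and 87.3. Of 10 markers of tissue-resident innate lymphocytes compared with T cells, 8 were at least 2-fold lower in both libraries and 0 higher. Over all genes compared 4.97% were lower. That list of 15 summed to 1275 CPM in Control and 1928 in aPD1, of which Rgs1, a regulator of G-protein signalling, held 845 and 1128. T cells held the list at 5349 and 5237, so a level below theirs does not tell NK cells from resident innate lymphocytes. Against NK cells with Gzmc to Gzmg, 1 of 5 members was at least 2-fold lower in both libraries and 0 higher. Over all genes compared with those cells 0.823% were lower and 1.14% higher. Between the libraries 4 of the list's 5 compared members had a ratio above 0, with a median of 0.52, and 1, Ly6a, was past 2-fold. Over all genes compared between the libraries 64.1% were above 0 and 1.91% at least 2-fold higher, with a median of 0.13. Itga1, which encodes the integrin CD49a, had 7 UMIs in 6 Control cells and 1 UMI in 1 aPD1 cell. Cxcr6, a chemokine receptor of resident lymphocytes, had 5 UMIs in 3 Control cells and 25 in 14 aPD1 cells. A division of the gated cells by Itga1 and Cxcr6 left only 6 and 8 positive cells at equal depth and was not taken further. Gata3, Rora and Areg, genes of other innate lymphoid cells, summed with 8 more to 424 and 577 CPM, nearly all of it from Ncr1, which is in that list, while 7 of its 11 genes were at 0 in each library. T-cell markers summed to 180 and 227 CPM, against 5336 and 6420 in T cells. These sums include Cd3d and Cd3e, which the rule sets to 0 in the NK cells and which define the T cells. Cd5, which the rule does not read, was at 0 in both libraries. Cd28 and Lef1, also on that list and not read by the rule, were detected. Cd28 stood at 124 and 131 CPM and Lef1 at 38.4 and 36.4. Together they held 163 of the 180 CPM in Control and 167 of the 227 in aPD1. Mast-cell and basophil markers were at 0, 6 of 6 in each library. B-cell markers summed to 5.91 and 14.6, erythrocyte markers to 2.96 and 3.64 and tumour and stromal markers to 82.8 and 53.4. Of the gamma-delta T-cell list only Cd163l1 was in the gene table, and it was at 0.

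Cells lay on both sides of each limit of the rule. In Control the 208 cells with no UMI of Gzmc to Gzmg had Ccl5, a chemokine gene, at 7292 CPM, the 30 cells with 1 UMI at 1515, and the 7 cells just outside, with 2 UMIs, at 1899. In aPD1 the same 3 groups held 314, 33 and 15 cells, with Ccl5 at 16580, 4830 and 3199. The cells with 1 UMI thus stood nearer to the excluded cells in Ccl5. They were deeper than cells with none, with medians of 3207.5 against 2313.5 UMIs in Control. Gated cells with 1 UMI of Ncr1 and Klrb1c had Gzma at 6126 and 12086, against 7872 and 12220 in cells with 2 UMIs. Barcodes just outside, with no UMI of either and the other limits met, had 822 and 1427. Of barcodes with 1000 to 1199 UMIs the gate held 9 of 43 and 24 of 184, and of those with 800 to 999 it would have held 3 of 32 and 13 of 168.

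The first comparison set these NK cells against T cells of the same library. Among 3440 genes with enough UMIs, 86 were at least 2-fold higher in the NK cells in both libraries (2.5%) and 171 at least 2-fold lower (4.97%). Genes of the rule were not left out of these counts, and the rule itself fixes their differences. The genes with the largest excess were receptors. Klra8, which encodes Ly49H, stood at 699 CPM in Control and 848 in aPD1, against 3.10 and 4.30 in T cells. Klra4, which encodes Ly49D, stood at 896 and 1104, against 0 and 5.86 in T cells. At these levels both receptors were close to absent from T cells, and the Control ratio for Klra4 is a bound: set against 3 UMIs in all T cells, it was at least 8.17 higher on the log2 scale. The NKR-P1 genes Klrb1a, Klrb1b and Klrb1f followed, with levels of 119 to 257 CPM against 1.03 to 8.21 in T cells. Klri2 and Klra9 were the other lectin-like receptors among the 12 leading genes, which also held 3 genes of signalling molecules. Tyrobp, the DAP12 adaptor that carries the signal of activating Ly49 receptors, stood at 3024 and 3471 against 94.2 and 114. Fcer1g, the gamma chain that pairs with NKp46 and the Fc receptor CD16, stood at 3504 and 3424 against 143 and 137. Sh2d1b1, the SLAM-family adaptor EAT-2, stood at 78.3 and 63.1 against 0 and 1.76. Car2, a carbonic anhydrase, and Atp1b1, a sodium pump subunit, completed the 12, with Car2 at 508 and 596 against 18.6 and 11.5.

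**Figure D1:**
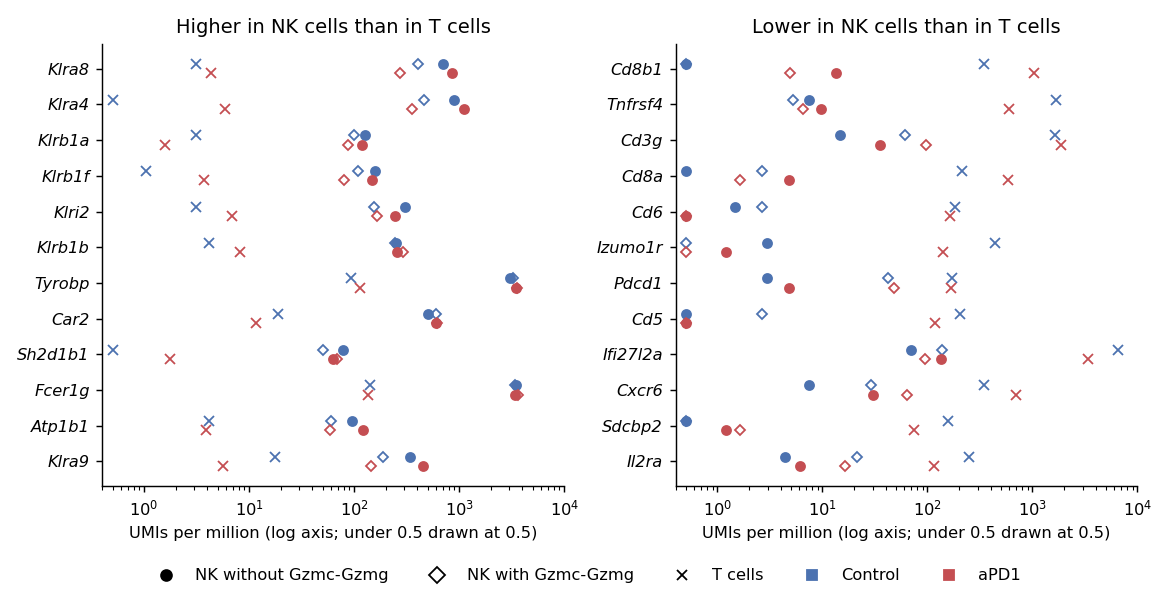
Levels in CPM (log axis; values under 0.5 drawn at 0.5) of the 12 genes with the largest excess (left) and deficit (right) in NK cells without Gzmc-Gzmg against T cells. Filled circles are the NK cells described here, diamonds NK cells with Gzmc-Gzmg and crosses T cells, in blue for Control and red for aPD1, each summed over the cells of 1 library. In the left panel circles and diamonds lie far to the right of the crosses for all 12 genes. In the right panel Pdcd1 is at 171 and 169 in T cells and at 2.96 and 4.85 in the NK cells described here.

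Of these 12 genes 7 lie in the NK gene complex, a cluster of lectin-like receptor genes on chromosome 6. In the mouse annotation (mm10) the cluster's 24 Klr genes span positions 128609227 to 131247362. Of 20 genes of that span with enough UMIs, 16 were at least 2-fold higher than in T cells in both libraries and 1 was lower. Over all genes compared 2.5% were higher and 4.97% lower. The 16 include Klrb1c, a gene of the rule, whose difference the rule fixes. Ly49 genes are close copies of each other, so reads could have been split or lost between them when the authors counted, and the level of a single Klra gene is uncertain for that reason. All 6 Ly49 genes compared and 10 of 16 NKG2, NKR-P1 and related receptor genes were at least 2-fold higher than in T cells.

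Among the 12 genes with the largest deficit were 5 from the fixed list of T-cell markers. These were the T-cell receptor subunit gene Cd3g and the coreceptor or surface genes Cd8a, Cd8b1, Cd5 and Cd6. They were at 0 to 35.2 CPM in the NK cells and at 119 to 1860 in T cells. Tnfrsf4, the costimulatory receptor OX40, stood at 7.39 and 9.70 against 1680 and 601. Izumo1r, the folate receptor 4 of regulatory T cells, stood at 2.96 and 1.21 against 439 and 140, and Il2ra, the alpha chain of the interleukin-2 receptor, at 4.43 and 6.06 against 246 and 115. Il2rb, the beta chain that NK cells use for interleukin-15, stood at 433 and 455 in the NK cells and at 241 and 202 in T cells. Ifi27l2a, an interferon-induced gene, was at 69.5 and 136 against 6585 and 3343. Of 31 interferon response genes 12 were at least 2-fold lower than in T cells in both libraries and 0 higher. Sdcbp2 was the last of the 12, at 0 and 1.21 against 155 and 74.5.

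Pdcd1, the target of the injected antibody, was close to absent. It had 2 UMIs in 2 of 238 Control NK cells and 4 UMIs in 2 of 347 aPD1 NK cells, which is 2.96 and 4.85 CPM. T cells stood at 171 and 169, and NK cells with Gzmc to Gzmg at 42.2 and 47.5. Set against both, the level in the NK cells described here was lower. Against NK cells with Gzmc to Gzmg, the counting interval of the log2 ratio, from 2 UMIs, was -7.00 to -1.75 in Control. In aPD1 the ratio against those NK cells was -3.29 (-5.26 to -1.78). Of 14 checkpoint and costimulatory receptors compared with T cells, 8 were at least 2-fold lower in both libraries and 0 higher. Havcr2, which encodes TIM-3, had 1 UMI in Control and 0 in aPD1. Tnfrsf9 (4-1BB) and Tnfrsf18 (GITR) were detected in the NK cells, at 262 and 244 and at 179 and 243 CPM, below the 969 and 458 and the 1108 and 522 of T cells.

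The Ly49 receptors were read cell by cell after each cell was thinned to 1000 UMIs. No Ly49 transcript was found in 18.5% of the Control cells and 17.6% of the aPD1 cells, 1 gene in 29.4% and 24.5%, 2 in 31.5% and 32.9%, and 3 in 16.8% and 19.0%. Among T cells 94.8% and 94.2% had none, and among NK cells with Gzmc to Gzmg 46.9% and 41.2% had none. Klra8 was commoner among Klra4-positive cells in aPD1, where 52.1% of Klra4-positive cells held a Klra8 UMI against 25.1% of Klra4-negative cells. In Control these shares were 35.1% and 31.9%. Klrc1, which encodes the inhibitory receptor NKG2A, was found in 15.2% of Klra8-positive and 22% of Klra8-negative Control cells, and in 10.3% and 26.7% in aPD1. These are descriptions over cells of 1 library each, with no test.

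**Figure D2:**
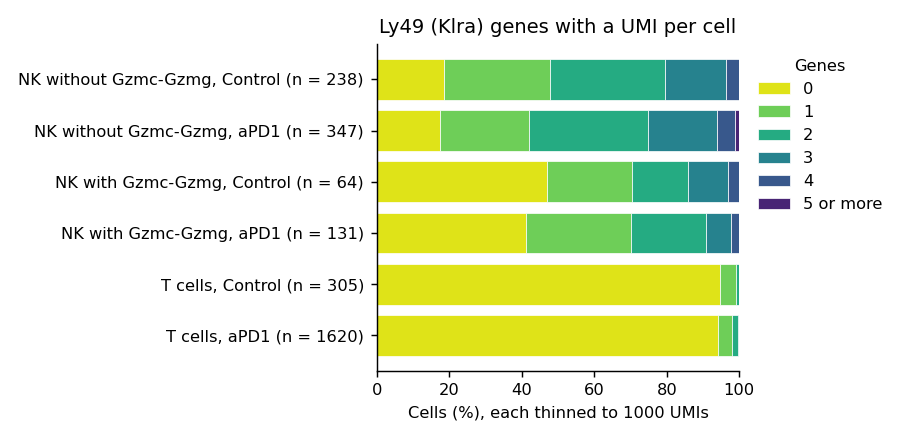
Share of cells (x axis, percent) by the number of distinct Ly49 (Klra) genes with a UMI, from 0 (yellow) to 5 or more (purple), after thinning every cell to 1000 UMIs. Bars are classes of cells in each library, with n cells given. Cells with no Ly49 UMI are 18.5% and 17.6% of the NK cells described here and 94.8% and 94.2% of T cells.

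Cells with at least 1 UMI of Klra4 or Klra8 at equal depth (142 in Control, 195 in aPD1) were set against cells with none (96 and 152). Of 1491 genes 0 were at least 2-fold higher in both libraries (0.0%) and 1 was at least 2-fold lower (0.0671%). That gene was Cxcl10, a chemokine induced by interferon, at 37.2 CPM in Klra4- or Klra8-positive cells and 190 in negative cells of Control, and at 64.3 and 180 in aPD1. Klrc1 was lower in the positive cells in both libraries, at 179 against 336 and 222 against 463, with log2 ratios of -0.91 and -1.06. Ltb, which encodes lymphotoxin beta, S100a4, a calcium-binding protein, and Bcl2a1b, an apoptosis inhibitor, were also among the 8 lowest in both libraries. Their log2 ratios lay between -0.74 and -1.95. Among the 8 highest were Khdc1a at 1.28 and 1.03 and Ccl3, the chemokine MIP-1 alpha, at 0.81 and 1.24. Khdc1a rests on 32 UMIs in Control.

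The NK cells most like the ones described here are those with at least 2 UMIs of Gzmc to Gzmg, 64 in Control and 131 in aPD1. These were deeper, with medians of 5064 and 4161 UMIs. Of 2187 genes compared, 25 were at least 2-fold higher in the cells without the granzymes in both libraries (1.14%) and 18 at least 2-fold lower (0.823%). Genes of the rule were not left out of these counts, and any difference in Gzmc to Gzmg is fixed by the rule. Chemokines led the genes that were higher. Ccl5 (RANTES), which draws T cells and monocytes, stood at 6447 and 15256 CPM in the cells described here and at 1533 and 776 in cells with the granzymes, log2 ratios of 2.07 (1.95 to 2.20) and 4.30 (4.16 to 4.43). Ccl3 stood at 328 and 303 against 76.5 and 6.55. Cxcl10 stood at 99.0 and 116 against 15.8 and 50.8. Ccl4 (MIP-1 beta) was higher by 0.71 in Control and 3.21 in aPD1 on the log2 scale and so passed 2-fold in aPD1 only. Also among the 10 leading genes were Cxcr4, the chemokine receptor for CXCL12, Cd7, a surface glycoprotein of lymphocytes, Spry2, an inhibitor of growth-factor signalling, and the transcription regulators Nr4a1, Crem and Foxp1. Cd7 stood at 330 and 353 against 124 and 131.

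Apart from the genes of the rule, those lower than in the granzyme-bearing cells were led by interferon-induced membrane proteins. Ifitm1 stood at 13.3 and 25.5 CPM against 705 and 1030, and Ifitm2 at 26.6 and 32.7 against 264 and 596. Ifitm3 had log2 ratios of -1.26 and -2.18. The list of interferon response genes did not go this way as a whole. Of its 18 members compared with these cells, 1 was at least 2-fold lower in both libraries and 1 higher. Over all genes 0.823% were lower and 1.14% higher. The list's median log2 ratios were 0.41 and 0.25, against 0.06 and 0.09 for all genes. Spp1, which encodes osteopontin, stood at 331 and 201 against 1338 and 848, and T cells at 13.5 and 18.0. Ly6c2 and Ly6a, surface proteins of activated or more mature lymphocytes, S100a4, the actin-capping gene Capg and the hypoxia-induced Hilpda were also lower, with log2 ratios from -1.90 to -1.28 in Control and from -1.63 to -1.30 in aPD1. AA467197 had -2.19 and -1.73. Gzma and Gzmb, the granzymes the rule did not use, did not separate the kinds by 2-fold. Gzma stood at 7329 and 13795 against 6413 and 7135, and Gzmb at 1985 and 2211 against 2779 and 2459.

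The second comparison asked how the NK cells of anti-PD-1-injected tumours differed from those of Control. Of 3135 genes with at least 50 UMIs over both libraries, 60 were at least 2-fold higher in aPD1 (1.91%) and 20 at least 2-fold lower (0.638%). A ratio above 0 was found for 64.1% of genes, and the median log2 ratio of all genes was 0.13. Ribosomal protein genes took 36.6% of the Control UMIs and 30.1% of the aPD1 UMIs of these cells. With ribosomal and mitochondrial genes left out of the totals the median of all genes was -0.02, and 40 genes were higher and 28 lower. With the median ratio of abundant genes set to 1 it was 0.02, with 40 higher and 25 lower, which moves the share of higher genes among those past 2-fold from 75% to 61.5%. Log2 ratios below are best read against the 0.13 of all genes, and counts of list members above 0 against the 64.1%. That share was 47.8% with ribosomal and mitochondrial genes left out of the totals. Among genes with at least 200 UMIs, 6 were at least 2-fold higher and 7 lower, so most of the 60 higher genes rested on fewer UMIs.

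The chemokine Ccl5 and the granzyme Gzma stood far above Control in aPD1 and were held by most of the cells. Ccl5 (mm10 chromosome 11, 83525778 to 83530518, minus strand) stood at 6447 CPM in Control and 15256 in aPD1, a log2 ratio of 1.24 (1.19 to 1.29). Per 1000 UMIs the median cell held 3 Ccl5 UMIs in Control and 9 in aPD1, and 75.6% and 83.3% of cells held any, against 14.8% and 17.9% of myeloid cells. Over all alternatives run the log2 ratio was 1.08 to 1.35. In NK cells with Gzmc to Gzmg the log2 ratio had the other sign, -0.98, and in T cells it was 0.73. Gzma (mm10 chromosome 13, 113093825 to 113100981, minus strand), the tryptase-type granzyme, stood at 7329 and 13795, a log2 ratio of 0.91 (0.86 to 0.96), just under 2-fold. The median cell held 6 Gzma UMIs per 1000 in Control and 12 in aPD1, and 90.8% of cells held any in both libraries. Myeloid cells held any in 2.79% and 5.44%.

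**Figure D3:**
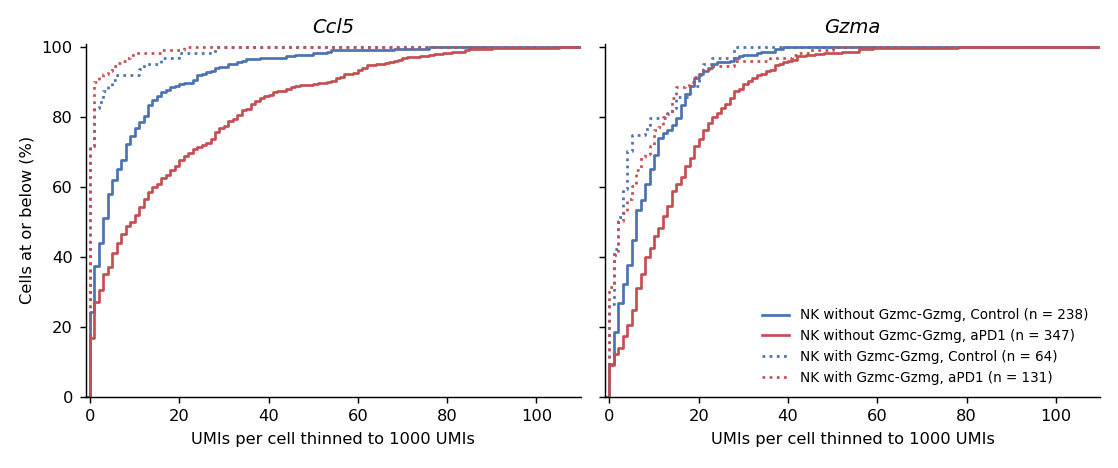
Cumulative share of cells (y axis, percent) by UMIs of Ccl5 (left) and Gzma (right) per cell after thinning to 1000 UMIs (x axis). Solid lines are NK cells without Gzmc-Gzmg and dotted lines NK cells with them, in blue for Control and red for aPD1. The solid red lines lie to the right of the solid blue lines over most of the range, with medians of 9 against 3 for Ccl5 and 12 against 6 for Gzma.

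Other effector genes gave a mixed picture. Of 15 cytotoxic effector genes compared 14 had a ratio above 0, 3 were at least 2-fold higher and 0 lower, and their median was 0.29. Prf1, which encodes perforin, stood at 57.6 and 135 CPM, from 39 and 111 UMIs, a log2 ratio of 1.22 (0.69 to 1.79). It was found in 6.30% and 10.4% of cells at equal depth, and the ratio was 0.71 with levels taken from thinned cells. Cma1, a chymase gene (mm10 chromosome 14, 55941451 to 55944675), was, among the 12 highest ratios, the highest not held largely by 1 or a few cells. It had 12 UMIs in 11 Control cells and 70 UMIs in 46 aPD1 cells, 17.7 and 84.9 CPM, a log2 ratio of 2.26 (1.36 to 3.28). The highest cell held 6 of its UMIs, and without the mixed cells the ratio was 2.21. T cells held Cma1 at or near 0, and so did NK cells with Gzmc to Gzmg, while the mast-cell gene Cpa3 was at 0 in the gated cells of both libraries. Serpinb9b, a granzyme inhibitor, had a log2 ratio of 1.05 (0.45 to 1.69). Gzmb had one of 0.16 (0.05 to 0.26), near that of all genes. Fasl, the death ligand, had 0.09 (-0.27 to 0.45).

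Among cytokines and chemokines 4 of 8 genes had a ratio above 0, with 1, Ccl5, past 2-fold. Ccl4 stood at 1150 and 2006 CPM, a log2 ratio of 0.80 (0.68 to 0.93). Ifng, which encodes interferon gamma, stood at 115 and 166, a log2 ratio of 0.53 (0.12 to 0.95). Xcl1, a chemokine that draws cross-presenting dendritic cells, went the other way, at 1196 and 825, -0.54 (-0.68 to -0.39). Its 2 richest cells held 27.8% of its Control UMIs, and without the 2 richest cells of each library the ratio was -0.25. Tgfb1 stood at 406 and 281, -0.53 (-0.79 to -0.27).

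Genes induced by interferon stood mostly above 0. Of 40 listed genes 28 were compared, 25 had a ratio above 0, 5 were at least 2-fold higher and 0 lower, and the median was 0.60 against 0.13 for all genes. Over all alternatives run that median was 0.38 to 0.67. Usp18, a protease that removes ISG15 and damps type I interferon signalling, stood at 35.5 and 82.5 CPM, a log2 ratio of 1.22 (0.53 to 1.95). Gbp2 and Gbp3, guanylate-binding proteins, stood at 26.6 and 64.3 and at 25.1 and 53.4, log2 ratios of 1.27 (0.48 to 2.13) and 1.09 (0.25 to 1.99). Without the mixed cells Gbp3 had 0.82. Ly6a, which encodes Sca-1, stood at 136 and 359, a log2 ratio of 1.40 (1.06 to 1.75). Rsad2, the fifth, held 18 of its 44 aPD1 UMIs in 1 cell and had a ratio of 0.40 without mixed cells. Among the members under 2-fold, Isg15, a ubiquitin-like protein, had 0.63 (0.22 to 1.05) and Irf1, a transcription factor downstream of interferon gamma, 0.83 (0.35 to 1.34). Irf7, Irf9 and Isg20 had ratios of -0.11, -0.37 and -0.42. Samhd1, which cleaves nucleotides and is not on that list, stood at 73.9 and 186, a log2 ratio of 1.33 (0.86 to 1.82).

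Promoters of these genes are shown because interferons act through a short element, the interferon-stimulated response element, which binds STAT and IRF factors. RefSeq windows from 250 bases before to 50 after the start (build GRCm38.p6) were found for 20 of the 28 genes. The motif searched was GAAA, any 2 bases and GAAA again, on either strand with overlapping matches counted. It was present in a window of 13 of these 20 genes (65.0%) and in 3.99% of all 27025 genes with windows. A match describes letters only and shows neither binding nor cause. The windows of Gbp2 (chr3:142620413-142620712, plus strand), Gbp3 (chr3:142559794-142560093, plus strand) and Isg15 (chr4:156200769-156201068, minus strand) read 5′ to 3′ as follows, with matches on either strand in capitals. On the reverse strand the motif reads TTTC, any 2 bases and TTTC.
Gbp2: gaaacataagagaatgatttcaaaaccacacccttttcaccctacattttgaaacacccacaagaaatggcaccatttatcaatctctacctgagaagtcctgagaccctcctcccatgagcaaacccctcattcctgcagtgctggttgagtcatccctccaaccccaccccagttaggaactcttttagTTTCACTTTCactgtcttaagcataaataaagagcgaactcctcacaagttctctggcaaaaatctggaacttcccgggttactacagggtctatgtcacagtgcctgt
Gbp3: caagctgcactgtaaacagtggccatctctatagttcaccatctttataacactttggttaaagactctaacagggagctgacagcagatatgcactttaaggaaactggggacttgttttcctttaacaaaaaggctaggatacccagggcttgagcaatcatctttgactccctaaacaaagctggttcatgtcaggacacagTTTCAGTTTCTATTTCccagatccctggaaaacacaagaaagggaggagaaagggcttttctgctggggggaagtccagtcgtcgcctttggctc
Isg15: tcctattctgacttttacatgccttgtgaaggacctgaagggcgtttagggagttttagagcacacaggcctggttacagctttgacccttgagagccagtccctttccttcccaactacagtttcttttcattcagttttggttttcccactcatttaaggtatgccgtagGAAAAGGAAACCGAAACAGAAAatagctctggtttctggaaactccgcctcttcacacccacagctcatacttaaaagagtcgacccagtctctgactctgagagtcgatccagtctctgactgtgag
The window of Gbp2 held 1 match, that of Gbp3 2 that overlap, and that of Isg15 3. The other genes with 2 matches, Bst2, Ifit1, Irgm1 and Socs1, had log2 ratios of 0.58, 0.63, 0.69 and 0.41, and Rsad2 and Gbp7, with 1 match each, had 1.59 and 0.04. Of genes with no match, Irf1, Ifi35, Ifi47 and Xaf1 had 0.83, 0.67, 0.61 and 0.27. Irf7, Irf9 and Isg20, also with no match, had -0.11, -0.37 and -0.42. A second window of Gbp3 (chr3:142560106-142560405) held no match. A link between matches and ratios was not tested.

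MHC class I presentation genes also stood mostly above 0, 14 of 16, with a median of 0.36 and 0 past 2-fold either way. H2-K1, a classical class I heavy chain and a ligand of Ly49 receptors, stood at 2066 and 2934 CPM (0.51, 0.41 to 0.60). The immunoproteasome gene Psmb9 had 0.56 (0.28 to 0.85) and the peptide transporter gene Tap2 0.87 (0.34 to 1.42). H2-Q4 had -0.96 (-1.71 to -0.23).

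Of late maturation genes 12 of 12 had a ratio above 0, 2 were past 2-fold and the median was 0.38. Gzma, Gzmb and Cma1 are on both this list and the effector list. Klrg1, a receptor of terminally mature NK cells, stood at 32.5 and 76.4 CPM, from 22 and 63 UMIs, a log2 ratio of 1.23 (0.51 to 2.00), and at 0.89 without the deepest 5% of cells. Irf8 had 0.45 (0.32 to 0.59) and Itgb2, the beta chain of the integrin LFA-1, 0.53 (0.13 to 0.94). Of early maturation genes 9 of 12 had a ratio above 0 with a median of 0.15, close to all genes. Cd27, a TNF receptor of less mature NK cells, stood at 205 and 159 (-0.37, -0.73 to -0.02).

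Receptors of the NK cells themselves differed little. The 6 Ly49 genes compared had ratios from 0.07 to 0.45, with a median of 0.34 and 0 past 2-fold. Klra3 had -0.43 at a minimum of 2000 UMIs per cell and Klra8 -0.04 when the gate was set on thinned UMIs, so a direction for single Ly49 genes is not given. Of 14 NKG2, NKR-P1 and related genes 9 were above 0, against 64.1% of all genes. Of these 14, 2 were past 2-fold (Klrg1 and Slamf7), and the median was 0.25. Klrk1 (NKG2D) had 0.20 (0.05 to 0.34), Klrc1 0.45 (0.17 to 0.74) and Klrd1 (CD94) 0.36 (0.23 to 0.49). Slamf7, a receptor that signals through EAT-2, stood at 39.9 and 84.9 (1.09, 0.43 to 1.79). Adaptors and proximal kinases had a median of 0.10 with 0 of 14 past 2-fold, and Fcer1g had -0.03 (-0.11 to 0.05).

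Of 15 cytokine receptor and feedback genes 13 were above 0, with a median of 0.34 and 0 past 2-fold. Ifngr1 had 0.48 (0.34 to 0.63), and Il2rb had 0.07 (-0.15 to 0.30). Of 17 transcription factors 10 were above 0, with a median of 0.02. Homing and adhesion genes were above 0 in 11 of 15, with a median of 0.24. Over all genes compared 64.1% were above 0. Of the homing genes 1, Ccr7, was past 2-fold, and without mixed cells it had 11 UMIs in Control and 2 in aPD1. Eomes had 0.27 (-0.12 to 0.67) and Tbx21 -0.07 (-0.58 to 0.44). Ahr, a ligand-activated transcription factor, was the 1 member past 2-fold, lower at 56.2 and 20.6 CPM, from 38 and 17 UMIs (-1.45, -2.36 to -0.59). Of 8 checkpoint and costimulatory receptors none passed 2-fold, 5 were above 0 and the median was 0.09, and Ctla4 had 0.81 (0.22 to 1.44).

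**Figure D4:**
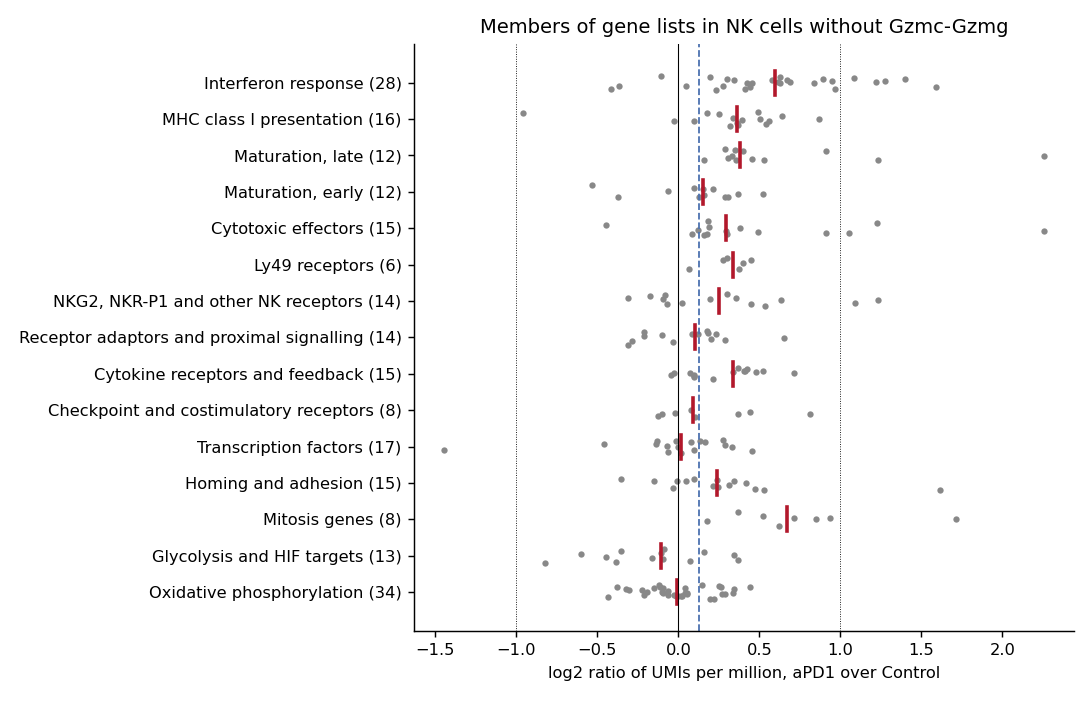
Log2 ratio of CPM, aPD1 over Control (x axis), for the members of 15 gene lists in NK cells without Gzmc-Gzmg. Each point is a gene with at least 50 UMIs (number in brackets), red bars are list medians, the dashed blue line is the median of all genes, 0.13, and dotted lines mark 2-fold. Interferon response genes have a median of 0.60 and mitosis genes one of 0.67, while glycolysis genes have one of -0.11.

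Stress, metabolism and the cell cycle were also listed. Nfkbia, the inhibitor of NF-kB that NF-kB induces, stood at 257 and 645 CPM, a log2 ratio of 1.33 (1.08 to 1.58), and without mixed cells at 1.27. The stress-induced Gadd45g and Gadd45b had 1.71 (0.91 to 2.61) and 1.46 (0.84 to 2.13), and Furin, a proprotein convertase, 2.04 (1.16 to 3.02), with 18 of its 65 aPD1 UMIs in 1 cell. Of 26 dissociation, immediate early and heat-shock genes 3 were past 2-fold higher, 1 lower, and the median was 0.07. Fos had -0.74 (-1.04 to -0.44), while Junb had 0.41 (0.29 to 0.53). Hspa1a, a heat-shock gene, was lower at 111 and 38.8, and its 32 aPD1 UMIs came from 3 cells. Of 13 glycolysis and HIF target genes 4 were above 0 and 0 past 2-fold, with a median of -0.11, and Eno1 (enolase) had -0.82 (-1.18 to -0.47). Oxidative phosphorylation genes had 16 of 34 above 0 and a median of -0.01.

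All 8 mitosis genes compared were above 0, with a median of 0.67 and 1 past 2-fold. That gene, Ube2c, held 28 of its 44 aPD1 UMIs in 1 cell and had -0.06 without mixed cells. The list's median was 0.19 without mixed cells and 0.10 with the gate on thinned UMIs. S phase genes were above 0 in 5 of 8, against 64.1% of all genes, with a median of 0.36. Cells with at least 3 UMIs of S-phase and mitosis genes at equal depth were 14.7% (10.5 to 19.9) in Control and 22.8% (18.5 to 27.5) in aPD1. In myeloid cells, read the same way, these shares were 9.75% and 22.9%, and in T cells 23% and 27.5%. The score does not remove free RNA and its threshold is arbitrary: 51 Control and 92 aPD1 cells lay 1 UMI below it. Cycling itself is not read from it.

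Several of the largest ratios came from few cells. S100a8 and S100a9, neutrophil and monocyte genes, had 2 and 1 UMIs in Control and 128 and 136 in aPD1, of which single cells held up to 87 and 64. Free RNA held S100a8 at 342 CPM in Control and 5094 in aPD1. Without the mixed cells S100a8 had 2 and 23 UMIs and S100a9 1 and 21. Fscn1 had 1 and 62 UMIs, 41 of them in 1 cell, and 1 and 2 without mixed cells. Cxcl2, a neutrophil chemokine, had 7 and 84 UMIs with 42 in 1 cell, and Fabp5, a fatty acid carrier, had 13 and 68 with 39 in 1 cell. Without mixed cells these were 7 and 17 UMIs for Cxcl2, a log2 ratio of 1.10, and 9 and 3 for Fabp5. In the other direction H2-Aa, H2-Ab1, H2-Eb1 and Cd74, the MHC class II genes, had ratios of -2.39 to -2.87, and 1 Control cell held 99, 181, 111 and 230 of their 151, 232, 132 and 260 UMIs. Without mixed cells the log2 ratios of H2-Aa, H2-Ab1, H2-Eb1 and Cd74 were -1.32, -0.63, -0.95 and -0.07. Free RNA held these genes at 13760 CPM in Control and 3904 in aPD1. Il1b had 1.87 and 0.92 without mixed cells. Of the 60 genes higher in aPD1, 53 were still past 2-fold without the 2 richest cells of each library and 45 without mixed cells. Of the 20 lower genes these numbers were 16 and 15. Of the 20 lower genes 7 were unnamed gene models and 2 ribosomal protein genes or copies, Rpl35 at -1.01 and Rpl13a-ps1 at -1.13, and the ribosomal share of these cells differed between the libraries as given above.

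**Figure D5:**
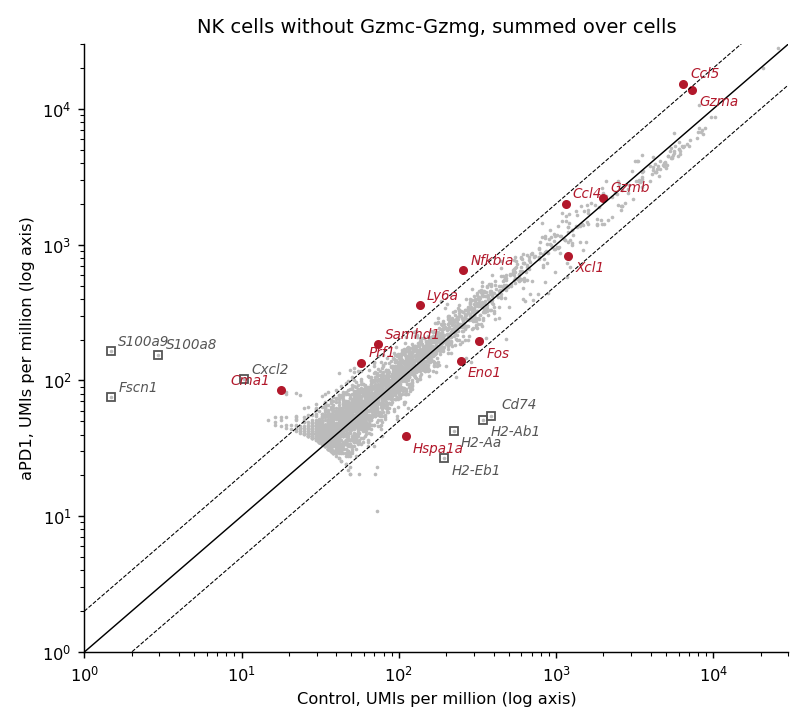
Level of each compared gene in NK cells without Gzmc-Gzmg, Control (x axis) against aPD1 (y axis), in CPM on log axes, summed over the cells of each library. The solid line marks equal levels and dashed lines 2-fold, red circles are genes named in the text and open squares genes held largely by few cells. Ccl5 lies above the upper dashed line at 6447 and 15256, and Gzmb near the solid line at 1985 and 2211.

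Guk1, Amd1, Lgals3, Spp1 and Pecam1 completed the 12 lowest ratios. Guk1, a guanylate kinase, had -0.90 (-1.49 to -0.33), Amd1, an enzyme of polyamine synthesis, -0.84 (-1.42 to -0.27), Lgals3 (galectin-3) -0.81 (-1.10 to -0.52), Spp1 -0.72 (-1.02 to -0.42) and Pecam1, an adhesion molecule, -0.71 (-1.36 to -0.08). None of these 5 passed 2-fold. Spp1 was held by 26 Control and 36 aPD1 cells, and its direction turned, to 0.47, without the cells counted as cycling.

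Since Ccl5 had the most UMIs of the genes past 2-fold, cells with at least 3 Ccl5 UMIs at equal depth (133 in Control, 241 in aPD1) were set against cells with none (58 in each library). This division was chosen after the values were seen. The negative cells were deeper, with medians of 3042 and 2815 UMIs against 2196 and 1908. Of 1240 genes 7 were at least 2-fold higher in Ccl5-positive cells in both libraries (0.565%) and 2 lower (0.161%). The related chemokine genes went with Ccl5. Ccl3 stood at 606 CPM in positive and 46.8 in negative cells of Control and at 434 and 67.7 in aPD1. Ccl4 stood at 1911 and 369 and at 2893 and 265. Gzma stood at 9913 and 4163 in Control and at 17976 and 5306 in aPD1. Ifng stood at 179 and 41.6 and at 206 and 90.3. Serpinb9b stood at 66.4 and 15.6 in Control and at 142 and 16.9 in aPD1. With 23 UMIs in positive and 3 in negative cells of Control, Serpinb9b is not among the 1240 genes. Its level in negative cells of aPD1 also rests on 3 UMIs. Gzma was thus higher in aPD1 than in Control within the Ccl5-positive cells as well as within the negative cells. Ly6a stood at 57.7 in positive and 275 in negative cells of Control and at 189 and 802 in aPD1. Ltb and Ms4a4c, a membrane protein of the MS4A family, were lower in positive cells too, with log2 ratios of -1.12 and -2.36 for Ltb and of -1.96 and -1.62 for Ms4a4c. With 13 and 28 UMIs in Control, Ms4a4c is not among the 1240 genes either. Xcl1 had -0.31 in Control and -1.25 in aPD1. Klra9, Klra4 and Klra8 were higher in positive cells in both libraries, with Klra9 at 442 and 208 and at 513 and 209.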

How the data were processed

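Counts of UMIs per gene and barcode, not normalised, were deposited by the authors for 27998 genes and 737280 barcodes in each of 2 libraries. Per the submitters' processing notes they used Cell Ranger 2.1 and the mm10 build; whether strand was used, and other settings, are not given in the sources used here. The members, gene lists and comparisons were chosen with earlier results of these data known. Cells were gated on raw UMIs as the report states, and no doublet caller was run; the deepest 5% of cells, and mixed cells, were left out as alternatives. Levels (CPM) are sums of a gene's UMIs within each class and library, per 1000000 of that sum over genes. Genes with at least 50 UMIs over the compared groups entered a comparison (for NK against other cells and for divisions of the NK cells, in each library). Ratios are log2, with conditional binomial (Clopper-Pearson) intervals; a group under 3 UMIs was set to 3. Thinning drew 1000 UMIs per cell without replacement with a fixed seed. The free RNA profile came from barcodes holding 10 to 50 UMIs, and its share from macrophage genes (C1qa, C1qb, C1qc, Apoe and Ms4a7). Molecules within a cell are not independent, so intervals and the limit of 3 UMIs (4.43 CPM in Control, 3.64 in aPD1) cover counting error only. The same steps were tested on simulated counts.

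Genes were named by size: the 12 highest and 12 lowest ratios for aPD1 over Control and for NK over T cells, 10 and 10 against NK cells with Gzmc to Gzmg, and 8 and 8 for each division, among genes with at least 50 CPM and 50 UMIs in the higher cells of a library (20 UMIs for divisions), leaving out ribosomal, mitochondrial and unnamed genes and those of the gate. Fixed effector, receptor and transcription factor genes and up to 5 members of each of 31 lists were added. Trac, Trbc1, Trbc2 and similar receptor segments were not analysed here, so excluding more T-cell receptor transcripts rested on Cd3g. Coordinates are from the GENCODE annotation of mm10. Python 3.11.15, numpy 2.4.6, scipy 1.17.1, pandas 2.3.3 and matplotlib 3.10.9 were used.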

Additional observations from a re-analysis of the deposited data

Results flagged for a closer look

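For 14 named genes the aPD1 over Control log2 ratio had opposite signs in NK cells without and with Gzmc to Gzmg. How many of all compared genes did so is not given here, so the 14 are a description only. The difference between the kinds was not tested, since each group has 1 library, and the granzyme-bearing cells are few and deeper. For the chemokines, Ccl5 had 1.24 in cells without and -0.98 in cells with the granzymes, and Ccl4 0.80 and -1.70. Ifng had 0.53 and -0.98, and Gzmb 0.16 and -0.18. The receptors Klra8 and Klra4 had 0.28 and -0.56, and 0.30 and -0.36. In cells without the granzymes Klra8 had -0.04 when the gate was set on thinned UMIs. A direction for single Ly49 genes is therefore not given here either. The mitosis genes Birc5, Cenpa, Hmgb2 and Cks2 had 0.94, 0.71, 0.37 and 0.85 in cells without and -2.84, -0.86, -1.0 and -1.27 in cells with the granzymes. The stress genes Gadd45g and Dusp1 had 1.71 and -1.09, and 0.28 and -0.49. With the signs exchanged, Ifitm3 had -0.52 and 0.40, and the glycolysis gene Aldoa -0.36 and 0.37.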

How the results depend on the processing

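Ccl5 was higher in aPD1 under every alternative run, by 1.08 to 1.35 on the log2 scale, and Gzma by 0.71 to 0.96. Counts of genes past 2-fold moved with the gate and the UMI minimum. Genes higher in aPD1 numbered 38 with the gate on thinned UMIs, 28 with levels from thinned cells, 230 at a minimum of 20 UMIs and 6 at 200, against 60; lower genes numbered 12, 11, 120 and 7, and 13 without mixed cells and 8 with at least 2 UMIs of Ncr1 and Klrb1c, against 20. With thinned cells 38 genes were higher and 85 lower than in T cells, and 10 higher and 4 lower than in granzyme-bearing NK cells, where fewer genes reached the minimum. Divided on raw UMIs of Klra4 and Klra8, 2 genes were higher and 2 lower. The gated share of Control was 17.7% with no Gzmc to Gzmg UMI, 14.2% with at least 2 UMIs of Ncr1 and Klrb1c, 16.0% on thinned UMIs and 16.7% at a minimum of 2000 UMIs; the last 3 gave 7.83%, 9.06% and 7.48% in aPD1. Cells counted as cycling were 36.1% and 49.3% at 2 UMIs, and 2.52% and 5.76% at 5. Leaving out the 2 richest cells reversed Cd74 (0.83), Fabp5 (-1.70) and Fscn1 (-0.29, with both libraries set to the limit of 3 UMIs), each held mostly by 1 cell. Cxcl2 had 0.41 with the gate on thinned UMIs, and Spp1, under 2-fold, turned to 0.47 without cycling cells. No paired analysis was possible because each group has 1 library. Depth limits genes under about 200 UMIs.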
